A study of Mus musculus with 2 samples.

Results

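The miRNA genes described here form an array inside Sfmbt2 on mouse chromosome 2. They were taken by name and place, as every miRNA gene of chromosome 2 whose GENCODE symbol starts with Mir297, Mir466, Mir467 or Mir669. The rule uses no measured value, though it was chosen with earlier results of these data known. It gave 59 of the 1973 miRNA genes counted. The samples were neural tubes of B6NCrl mouse embryos at embryonic day 11.5, with males and females pooled and no treatment or altered allele named. The only group holds 2 biological replicates, a pool of 109 embryos for replicate 1 and a pool of 88 embryos for replicate 2. Total RNA was size-selected below 30 nt and sequenced, giving 3708662 counts on the own strand of miRNA genes in replicate 1 and 4055883 in replicate 2. With 1 group there was no condition to compare, so the data show which members had reads in this tissue and how far the libraries differed. Levels are counts per 1000000 own-strand miRNA counts (CPM), per hairpin gene and with both arms of a hairpin together.

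MiRNAs are cut from hairpin transcripts and guide the silencing machinery to mRNAs, mainly by pairing through the seed, bases 2 to 8 of the mature strand. Sfmbt2 encodes a Polycomb group protein, and in mouse extraembryonic tissue it is imprinted and transcribed from the paternal copy. The miRNA array in its intron is found in rodents, is strongly expressed in placenta, and is needed there for normal growth of the placental layers.

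The annotation places every member in this host. In GENCODE M21 (assembly GRCm38), Sfmbt2 occupies bases 10370510 to 10595253 of chromosome 2, plus strand. The members run from 10466663 to 10518279, all on the same strand as the host. All 71 hairpins of these names annotated on chromosome 2 lie in intron 10 of the protein-coding transcript Sfmbt2-201, which spans 62472 bases, and none of them overlaps an exon of the gene. The 12 others, Mir466e, Mir466b-1, Mir466c-1 and 9 copies of Mir669a, had no row used here. The level of the host mRNA was not measured by these files.

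The names of the array also occur elsewhere in the genome, at 10 genes with a row in both files. These namesakes show the kind of sequence that the names stand for, runs of alternating purine and pyrimidine bases. RefSeq's table for GRCm38.p6 matched 9 of the 10 namesakes and 0 of the 59 members by symbol, and it gave a mature strand for 8 namesakes. The mature strands of 5 of them, which cover 3 of the 4 name groups, are shown with the seed in capitals.
mmu-miR-467f: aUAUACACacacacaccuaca
mmu-miR-467g: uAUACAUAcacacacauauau
mmu-miR-467h: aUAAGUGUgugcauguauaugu
mmu-miR-466k: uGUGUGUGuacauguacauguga
mmu-miR-669n: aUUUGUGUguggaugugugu
The 3 strands named miR-467 carry 3 different seeds, so a shared name did not mean a shared seed. The seed of miR-467h was shared with miR-668-5p in this table, and none of the other 4 was found in a second gene of it. Since no member was matched in this table, seeds shared with members could not be looked for. Steps of UG, GU, AC or CA made up 50 to 78.9% of neighbouring base pairs in the 8 mature strands. The median was 69.9%, against 28.6% over all 1738 mature strands of the table. All 10 namesakes had 0 counts in both libraries, where a count of 0 allows up to 0.809 CPM in replicate 1 and 0.740 CPM in replicate 2. The names therefore stood for counted miRNAs at the chromosome 2 array alone, among the rows used here. These counts leave out reads mapped to several places, which the limits do not cover. Whether such reads came from the namesakes was not analysed.

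The array held 20217 counts in replicate 1 and 23001 in replicate 2. That was 0.545% of replicate 1's miRNA counts (Wilson 95% limits 0.538 and 0.553) and 0.567% of replicate 2's (0.560 and 0.574), or 0.556% ± 0.0155 (SD, n = 2). Intervals and zero limits cover counting error only, since reads copied by PCR are not independent molecules. Reads were found on the members' own strand only, with 0 counts on the opposite strand in both libraries, which allows up to 3 counts in each. Over all miRNA genes the opposite strand held 78467 and 68621 counts. The sense orientation of the array in its host was thus matched by the strand of all its counted reads.

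Few of the members carried these counts. Of the 59, 33 had no count in either library, 14 had 1 to 9 summed counts and 12 had at least 10. At least 100 summed counts were held by 8 members, and at least 1000 by 6. The 3 leading members took 77.5% of the array's counts in replicate 1 and 77.1% in replicate 2. The 5 leading members took 95.1% and 96.4%. The share of members with at least 10 summed counts, 20.3%, was near the 22.5% over all 1973 genes.

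**Figure D1:**
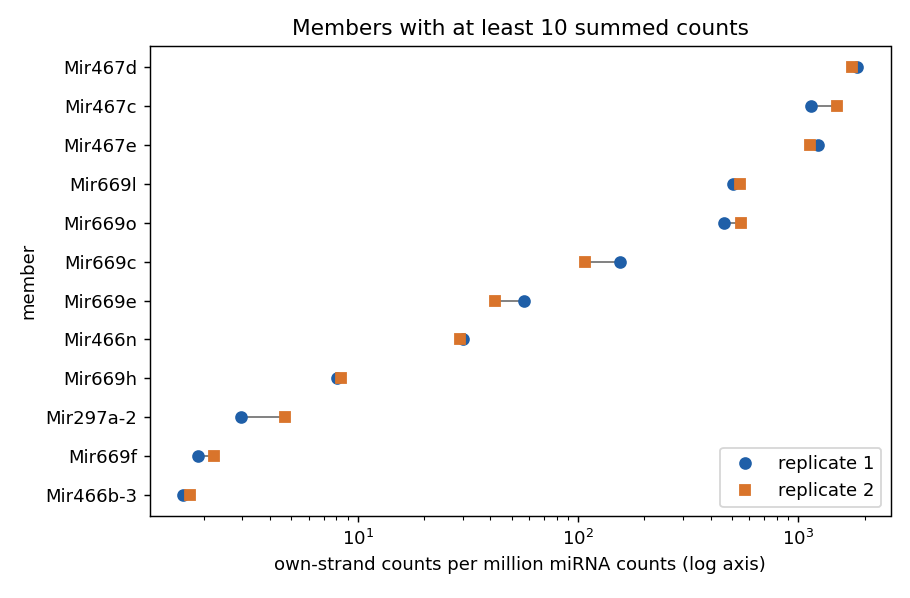
Level of the 12 members with at least 10 summed counts, as own-strand CPM on a log axis. Circles are replicate 1, squares are replicate 2, and grey lines join them. The mean levels run from 1.67 CPM for Mir466b-3 to 1798 CPM for Mir467d, and the gap between replicates is small beside the distances between most members.

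The Mir467 genes led the array. Mir467d (ENSMUSG00000077021.2, chromosome 2, 10507630 to 10507714) had 6840 counts in replicate 1 and 7103 in replicate 2, that is 1844 and 1751 CPM. Its mean level of 1798 ± 65.8 CPM (SD, n = 2) placed it at rank 73 of all 1973 genes, between Mir484 at 1801 CPM and Mir203 at 1678 CPM. Mir467d stood above all other members in both libraries.

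Mir467c (ENSMUSG00000077049.2, 10473931 to 10474027) had 4254 and 6077 counts, or 1147 and 1498 CPM. Its mean was 1323 ± 248 CPM, and among the 3 leading members it differed most between the libraries. Mir467e (ENSMUSG00000076948.2, 10505721 to 10505807) had 4568 and 4563 counts, or 1232 and 1125 CPM, with a mean of 1178 ± 75.4 CPM. The ranges of Mir467c and Mir467e overlapped, and their order was not the same in the libraries, since Mir467e was higher in replicate 1 and Mir467c in replicate 2.

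The Mir467 name group of 14 genes took 77.5% of the array's counts in replicate 1 (Wilson 95% limits 76.9 and 78.0) and 77.2% in replicate 2 (76.6 and 77.7). Apart from the 3 leading members, the group had 2 counts in replicate 1 and 4 in replicate 2, held by Mir467a-1 and Mir467b. Mir467b, which has been described as a repressor of lipoprotein lipase in macrophages, had 1 and 2 counts. The other 9 genes of the group, all copies of Mir467a, had none. Reads mapped to several places were left out, so these low counts do not show that the RNA was absent.

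The Mir669 genes came next, with 21.8% (21.2 to 22.3) and 22.1% (21.6 to 22.7) of the array's counts over 20 genes. Mir669l (10468971 to 10469068) had 1871 and 2205 counts, with a level of 524 ± 27.7 CPM. Mir669o (10514300 to 10514395) had 1703 and 2233 counts and 505 ± 64.6 CPM. The ranges of these neighbours in level overlapped, while Mir467e stood 2.44-fold and 2.07-fold above Mir669l.

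Mir669c (10509296 to 10509404) followed with 577 and 435 counts, or 131 ± 34.2 CPM. Mir669e (10467495 to 10467613) had 212 and 171 counts, or 49.7 ± 10.6 CPM. Both were higher in replicate 1, and their ranges did not overlap, with Mir669c 2.72-fold above Mir669e in replicate 1 and 2.54-fold in replicate 2. Mir669h reached 8.24 ± 0.208 CPM from 30 and 34 counts, and Mir669f 2.05 ± 0.234 CPM from 7 and 9 counts. Mir669a has been studied in heart and muscle progenitors as a regulator of MyoD. Its copy Mir669a-3 had 3 summed counts, and Mir669a-1 and Mir669a-2 had none. The other annotated copies of Mir669a had no row used here. Reads mapped to several places were left out, so these counts do not show that the RNA was nearly absent.

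The Mir466 and Mir297 genes held few counts. The 20 Mir466 genes took 0.663% (0.560 to 0.784) and 0.630% (0.536 to 0.741) of the array's counts, most of them from Mir466n with 111 and 118 counts, or 29.5 ± 0.591 CPM. Mir466b-3 had 6 and 7 counts and was the other Mir466 gene with at least 10 in all. Mir466h, described as promoting cell death in nutrient-starved cells, had 3 and 6 counts. Mir466l, described as stabilising the mRNA of the cytokine interleukin 10, had 2 and 4 counts. The 5 Mir297 genes had 18 counts in replicate 1 and 20 in replicate 2, of which Mir297a-2 held 11 and 19. The order of the 12 leading members was therefore Mir467d, Mir467c, Mir467e, Mir669l, Mir669o, Mir669c, Mir669e, Mir466n, Mir669h, Mir297a-2, Mir669f and Mir466b-3. Among neighbours in this order, the replicate ranges overlapped for Mir467c with Mir467e and for Mir669l with Mir669o. Mir297a-2, Mir669f and Mir466b-3 had 6 to 19 counts per library. Ranges that stay apart do not settle the order at such counts. Divided by hairpin length, which ran from 73 to 127 nt over the members, the order changed only in that Mir466b-3 stood above Mir669f.

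**Figure D2:**
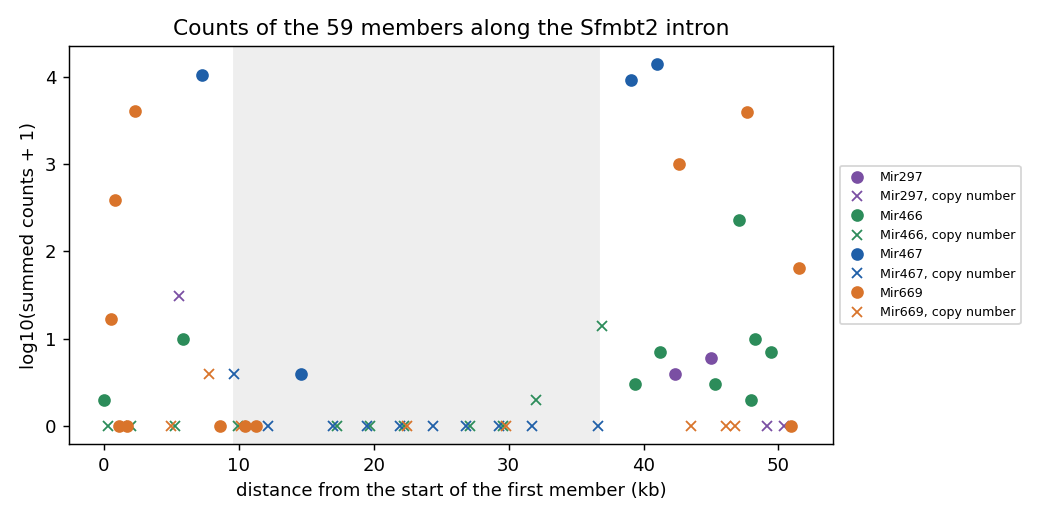
Summed counts of the 59 members along the Sfmbt2 intron, as log10 of the count plus 1 against the distance in kb from the start of the first member. Crosses mark symbols with a copy number and circles those without, colours mark the name groups, and the shaded stretch runs from Mir467a-1 to Mir467a-10. The high circles lie on both flanks, and no member in the shaded stretch exceeds 3 summed counts.

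Counts lay at both ends of the array and were nearly missing from its middle. The first 15 members, from Mir466m to Mir669k, span 8.76 kb and held 6360 and 8489 counts, which is 31.5% and 36.9% of the array. The last 21 members, from Mir466b-3 to Mir669h, span 14.7 kb and held 13854 and 14508 counts, or 68.5% and 63.1%. Between them, the 23 members from Mir467a-1 to Mir467a-10 span 27.0 kb and held 3 counts in replicate 1 and 4 in replicate 2. Of these 23 genes, 20 had no count in either library and 20 carry a copy number in their symbol. The limits of this middle stretch were set by gene names after the counts were known, so the contrast is a description.

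The middle stretch has the layout of a tandem repeat. The starts of successive Mir467a and Mir467b genes lie 2413 to 2470 bases apart, with the exception of Mir467a-9 and Mir467a-10, which lie 4880 bases apart. In that longer interval the annotation has a hairpin of 83 nt named Gm25022, 2429 bases after Mir467a-9. Mir467e starts 2448 bases after Mir467a-10, and Mir467d 1909 bases after Mir467e. The 2 leading members of the right flank thus follow on from the row of Mir467a copies, although they held 9131 and 13943 summed counts and the copies held between 0 and 3. The annotation has 46 more hairpins inside the array under Gm symbols. All 46 had rows, and together they held 14 counts in replicate 1 and 10 in replicate 2, with none reaching 10 in all.

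The copies differ from the counted genes in how much of their sequence is their own. Each hairpin of GENCODE M21 was read in windows of 20 nt, and a window was called unique when no other annotated miRNA hairpin held it. The rest of the genome was not searched, and the windows cover the whole hairpin, not the mature strand alone. Reads from a unique window may therefore still have mapped to several places. The counts used here leave out reads mapped to several places, which made up 25.2% and 27.3% of the reads of replicates 1 and 2. Those reads were 107 and 90.8 times as many as the counts of the array, and how many of them came from its hairpins was not analysed here. The level of a member is therefore uncertain wherever its mature strand is shared.

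Members with no unique window were almost without counts. There were 20 such hairpins, and together they had 1 count in replicate 1 and 2 counts in replicate 2. They include all 10 copies of Mir467a, and Mir467a-2 and Mir467a-3 differ by an edit distance of 1 over 83 nt. The 12 members with at least 10 summed counts had 32.3 to 95% unique windows, with a median of 51.3%, and the 33 members without a count had a median of 0%. Copy numbers in the symbol, which mark genes named for the same mature strand, gave the same picture. The 32 numbered members held 20 and 30 counts, and the 27 unnumbered ones 20197 and 22971.

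Unique sequence in this sense did not go with counts in every member. Mir467d, the most abundant, had 37.9% unique windows and shared a run of 60 nt with Mir467a-2, whose hairpin had 0 counts. Mir467d and Mir467e lie at an edit distance of 7, and Mir467c lies at 16 from each of them. Mir466g had 100% unique windows and 1 count in all. Mir466h with 93.5% had 9 summed counts, Mir466l with 85.3% had 6, and Mir669b with 87.2% and Mir669i with 73.1% had 0. Of the 13 members with at least 50% unique windows, 8 had at least 10 summed counts. Over the 59 members, Spearman's rho between unique windows and summed counts was 0.65, a description of genes that share sequence, a host intron and libraries. Whether any of these values reflects reads held back or a low level of the RNA was not tested.

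**Figure D3:**
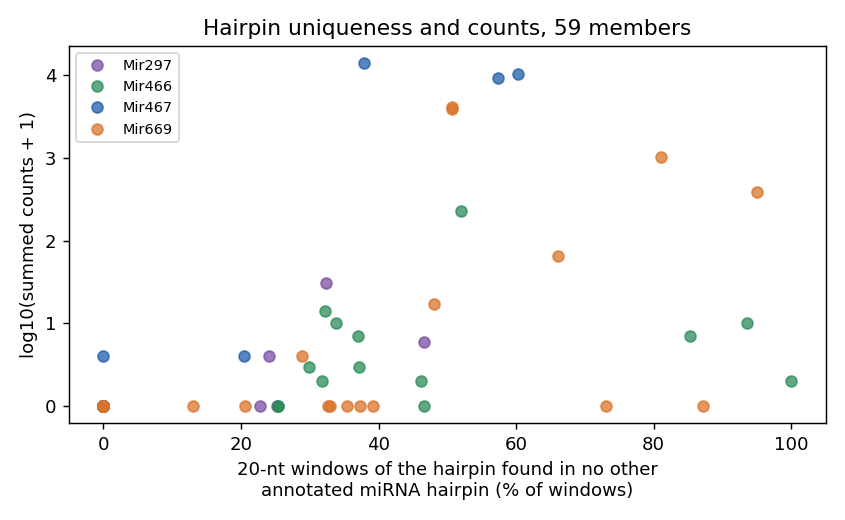
Summed counts of the 59 members, as log10 of the count plus 1, against the percentage of 20-nt hairpin windows found in no other annotated miRNA hairpin. Each point is a member, coloured by name group. The points at 0% lie at or near 0 counts, while points above 80% range from 0 to 1012 summed counts.

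The concentration of counts was set beside that of the Dlk1-Dio3 array, the large imprinted miRNA array of chromosome 12, here all 56 miRNA genes between Mir770 and Mir410. That array held 5.20% ± 0.668 of miRNA counts, 10.4 times the chromosome 2 array in replicate 1 and 8.33 times in replicate 2. At least 10 summed counts were held by 46 of its 56 genes, against 12 of 59. Its leading gene, Mir487b, reached 8015 ± 1109 CPM and its next, Mir411, 5913 ± 1314 CPM. Its first 3 genes took 35.8% of its counts, against 77.3% for the chromosome 2 array, both as means of the replicates. The median of unique windows was 100% in the Dlk1-Dio3 hairpins and 29.9% in the 59 members. Reads mapped to several places were left out, and 12 annotated hairpins of the chromosome 2 array had no row used here. Its total and its concentration are therefore uncertain, and so is its place beside the Dlk1-Dio3 array. These differences between arrays were not tested.

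**Figure D4:**
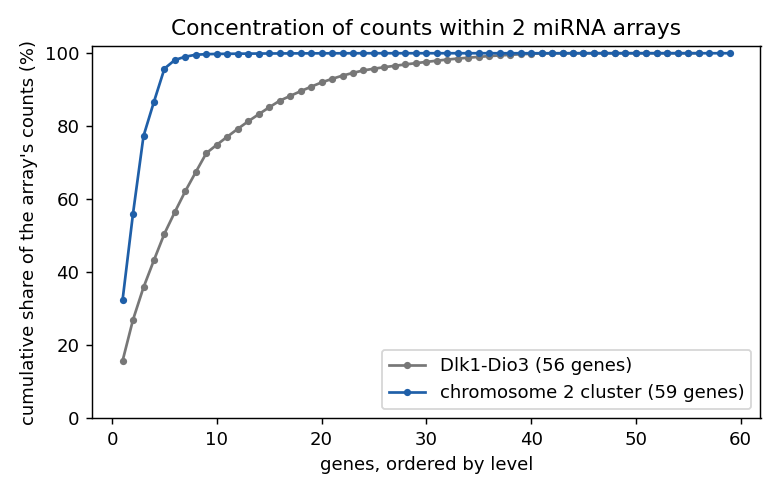
Cumulative share of an array's own counts, as the mean of the replicates, against the number of genes taken in order of level. The chromosome 2 array reaches 95.8% with 5 genes, where the Dlk1-Dio3 array is at 50.6%. Reads mapped to several places are left out of the counts.

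The libraries were then compared member by member. Each gene's counts were set against the library totals in a two-sided exact binomial test, adjusted by Benjamini-Hochberg over the 444 of 1973 genes with at least 10 summed counts. The test asks whether a gene's counts differ by more than counting noise, and it compares libraries, not conditions. Of the 12 members tested, 7 were called different at an adjusted p under 0.05, where 53.2% of all tested genes were. Higher in replicate 1 were 4 members (45.3% of all tested genes) and higher in replicate 2 were 3 (7.88%). With log2 ratios taken as replicate 1 over replicate 2, the median was -0.06 for these 12 members and 0.27 for all 444 genes.

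The direction of these calls depended on the scaling of the libraries. TMM scaling (trimmed mean of M values) moved every log2 ratio by -0.29. It then called 6 members, of 39.9% called over all tested genes. With it 1 member was higher in replicate 1 (18.2% of all tested genes) and 5 were higher in replicate 2 (21.6%). DESeq2's size factors also called 6 members, of 42.1% called over all tested genes. Again 1 member was higher in replicate 1 (23.0% of all tested genes) and 5 were higher in replicate 2 (19.1%). The calls of Mir467c, Mir669l and Mir669o as higher in replicate 2 and of Mir669c as higher in replicate 1 were made under all 3 scalings.

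By library totals, Mir467c and Mir669c differed most among members with over 1000 summed counts. Under TMM scaling and DESeq2's size factors, Mir669o and Mir669l differed more than Mir669c, with log2 ratios of -0.55 and -0.40 against 0.25 under TMM. Mir467c was 1.31-fold higher in replicate 2 by library totals (adjusted p of the exact binomial test, 2.55e-40), a log2 ratio of -0.39 with a 95% exact interval of -0.44 to -0.33. Mir669c was 1.45-fold higher in replicate 1 (adjusted p, exact binomial, 1.56e-08), a log2 ratio of 0.54 with an interval of 0.35 to 0.72. These genes of the same host intron moved in opposite directions between the libraries.

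The other 5 called members are given by library totals as well. Mir669o was 1.20-fold higher in replicate 2 (adjusted p, exact binomial, 5.56e-08) and Mir669l 1.08-fold (0.0341). Mir669e was 1.36-fold higher in replicate 1 (adjusted p, exact binomial, 0.00659), a call that was lost under TMM scaling, where its adjusted p was 0.490, and under DESeq2's size factors (0.322). Mir467e was 1.09-fold higher in replicate 1 (adjusted p, exact binomial, 4.25e-05) and Mir467d 1.05-fold (0.00512), and both turned to higher in replicate 2 under both other scalings. The remaining 5 members, Mir466n, Mir669h, Mir297a-2, Mir669f and Mir466b-3, were not called, and their intervals were wider. That of Mir466b-3 ran from -1.94 to 1.70 on the log2 scale.

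**Figure D5:**
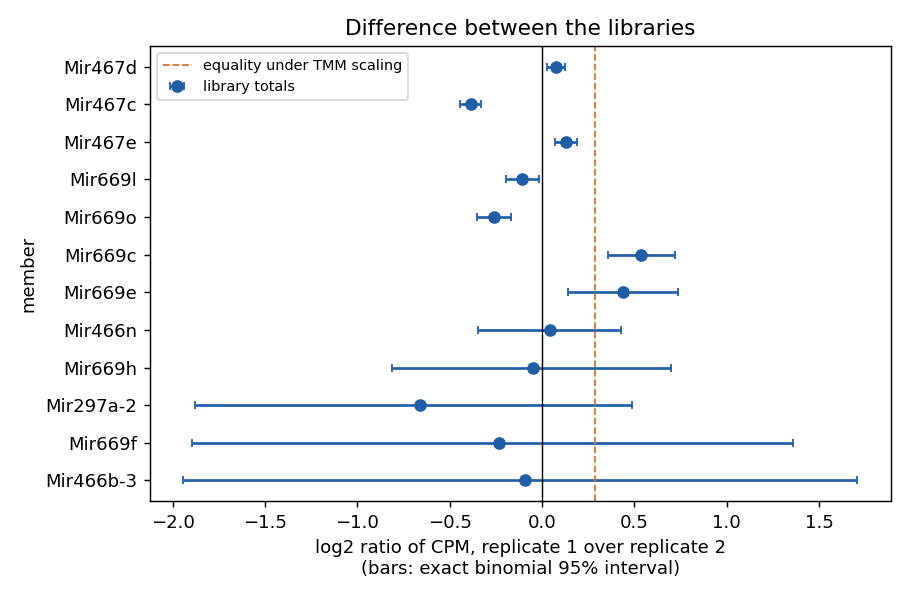
Log2 ratio of CPM, replicate 1 over replicate 2, for the 12 members with at least 10 summed counts, with 95% exact binomial intervals. The solid line marks equality by library totals and the dashed line equality under TMM scaling. Mir467c, Mir669l and Mir669o lie to the left of both lines and Mir669c to the right of both.

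Ratios within a library do not depend on its scaling. Mir467d stood 1.497-fold above Mir467e in replicate 1 and 1.557-fold in replicate 2, and 1.61-fold and 1.17-fold above Mir467c. Mir467c took 21.04% of the array's counts in replicate 1 and 26.4% in replicate 2, while Mir467d took 33.8% and 30.9%. Mir466n stayed at 1 count for every 61.6 and 60.2 of Mir467d. The coefficient of variation of CPM, unlike these ratios, depends on the scaling. By library totals it was largest for Mir669c, at 26.0%, and smallest for Mir466n, at 2.00%, among members with more than 100 summed counts. Under TMM scaling Mir467c differed more than Mir669c, with log2 ratios of -0.67 and 0.25. Mir466n then differed more than Mir669e, with -0.25 and 0.15.

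Gene lists of other cell types and of other imprinted or placental loci gave the setting of these levels. Neural genes with a row (Mir92b, Mir137, Mir153 and copies of Mir9 and Mir124a) held 0.850% and 0.738% of counts. That was 1.56 and 1.30 times the array. These genes were led by Mir92b at 4979 ± 383 CPM and Mir137 at 1965 ± 289 CPM, and none was at 0. Reads mapped to several places, as between copies of Mir9 or of Mir124a, were left out. The neural share is therefore uncertain, and so is its place beside the array and the other lists. Hox cluster genes held 29.1% and 33.7%, led by Mir10a and Mir10b. Endothelial Mir126a held 2.49% and 2.23%, mesenchyme genes 2.44% and 1.80%, muscle genes 0.140% and 0.0793%, and erythroid genes 0.0520% and 0.0368%. Of the 5 muscle genes, Mir133a-1 and Mir133a-2 were at 0 in both libraries, 2 reached 10 summed counts, and Mir206 led at 1060 ± 423 CPM. Mir133a-1 and Mir133a-2 are numbered copies, and reads mapped to several places were left out. Their 0 counts therefore do not show that the RNA was absent, and the muscle share is uncertain. None of the endothelial, mesenchyme, erythroid and Hox cluster genes with a row was at 0. The mesenchyme list holds numbered copies of Mir199a and the Hox cluster list numbered copies of Mir196a. Their shares are uncertain in the same way. The part of these other genes in the array's level was not tested.

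The Mir290 genes of embryonic stem cells and trophoblast, the cell lineage of the placenta, comprised 5 genes with a row, with 252 counts in replicate 1 and 176 in replicate 2. The array held 80.2 and 131 times as many counts. None of the 5 was at 0, and the leading Mir293 reached 26.1 ± 2.38 CPM. With the Mir302 genes added, the list of 11 placental and pluripotency genes held 0.168% ± 0.00284 of counts, led by Mir302a at 582 ± 76.1 CPM and Mir302d at 532 ± 13.7 CPM. The array held 3.28 and 3.33 times the counts of this list. Reads mapped to several places were left out of the array's counts, so its ratios to the Mir290 genes and to this list are uncertain. Other imprinted miRNA genes held 6.21% ± 0.372 over 18 genes, chiefly Mir335, in the imprinted gene Mest, at 46427 ± 1152 CPM and Mir296 of the Gnas locus at 7110 ± 553 CPM. Of the 18 genes, 7 reached 10 summed counts and 6, all Mir344 genes, were at 0 in both libraries. Reads mapped to several places were left out here as well, so a count of 0 does not show that the RNA was absent.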

How the data were processed

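Both libraries are small RNA sequencing of neural tube. The authors deposited raw counts of reads on each miRNA gene (assembly mm10, annotation GENCODE M4, per the file headers) in 3 unnamed columns. The first equals the sum of the others in every row, and they were read as either, own and opposite strand. The own-strand counts were used. No source used here names the aligner or counter or tells of adapter trimming. Rows that name no gene were left out of library totals, and 0 per-sample columns went unmatched to a sample.

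GENCODE M21 (GRCm38) gave symbols and positions for 1894 of 1973 genes, by their Ensembl identifiers. The members, lists and rules were chosen with earlier results of these data known. Named are members with at least 10 summed counts, members singled out after their values were seen (Mir467a, Mir467b, Mir669a, Mir466g, Mir466h, Mir466l, Mir669b, Mir669i and Gm25022 among them), and the leading genes of the comparison lists (neural, endothelial, erythroid, muscle, mesenchyme, Hox, embryonic stem and trophoblast, placental and pluripotency, Dlk1-Dio3, other imprinted). CPM divides own-strand counts by their sum over miRNA genes. It was not divided by hairpin length, since a read below 30 nt covers about a mature strand. For log2 ratios 0.5 counts were added to each gene, and their intervals are exact binomial ones without it.

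The exact binomial test with Benjamini-Hochberg adjustment ran over all 444 genes with at least 10 summed counts. Its p-values are too small where PCR copied reads. Counts were simulated for these libraries with a known change in 200 genes. On them the test found 65.2% of the 1.5-fold changes and 81.3% of the 2-fold ones (446 genes tested each). The simulated counts held counting noise only, without PCR copies or differences between pools. Without a change they gave 0 calls, where 53.2% of tested genes were called between the real libraries. The recovery therefore holds for counting noise alone. edgeR 4.0.16 gave TMM factors and DESeq2 1.42.0 gave size factors, under R 4.3.3. The rest used Python 3.11.15 with scipy 1.17.1. Alternatives were the scalings, count minimums, strand, denominator, pseudocount and leaving out a replicate.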

Additional observations from a re-analysis of the deposited data

How the results depend on the processing

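The array's share of 0.556% became 0.269% with all reads as denominator and 0.377% without Mir467d. With a replicate left out it was the other replicate's share, 0.567% or 0.545%. The 12 members with at least 10 summed counts became 26 with at least 1. Under TMM scaling the log2 ratios of Mir467e, Mir467d and Mir466n turned to -0.16, -0.21 and -0.25, and under DESeq2's size factors to -0.10, -0.16 and -0.19. Each scaling moves all genes by the same amount. Of the other alternatives for shares and counts of members, 33 stayed within the spread between replicates or within 1.5 times the count. Many of these could not move. A share with 1 of the 2 replicates left out lies within the replicate spread by construction. The array had 0 opposite-strand counts and the namesakes had 0 counts. Counting either strand or any chromosome therefore could not change the shares within the array. The count of cluster reads by mature strands held by 1 gene was not run. No paired analysis was possible because there is only 1 group. The 14 members with 1 to 9 summed counts had too few counts for their levels to be ordered. Whether depth, reads held back or a low level of the RNA set these counts was not tested.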
